A study of Mus musculus with 3 samples.

Results

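The heat shock chaperone genes described here are 10 genes taken by symbol from a table of 44625 mouse gene entries: Hspa1a, Hspa1b, Hspa5, Hspa8, Hspb1, Hsph1, Hsp90aa1, Hsp90ab1, Dnajb1 and Hsf1. All 10 were found, each with 1 entry. The study sequenced polyadenylated RNA of back skin cells from wild-type (WT) mice at 56 days of age, when the hair cycle is in its second resting phase. There is 1 group of 3 libraries, numbered as replicates 1 to 3 by their titles, of cells sorted as positive for integrin alpha6 and negative for Sca1. The series title names hair follicle stem cells. The protocol in the labels gives trypsin digestion at 37 °C for 50 minutes before staining for 1 hour at 4 °C. It speaks of duplicates where 3 samples are given, so what kind of replicates the libraries are is unclear. A technical part in the spread between libraries was not tested.

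Heat shock proteins are chaperones that bind unfolded proteins and help them fold. Hsf1 is the transcription factor that switches on the inducible chaperone genes when unfolded proteins accumulate, by binding repeated GAA and TTC units called heat shock elements. In the skin epithelium the small chaperone Hspb1 is known as an abundant keratinocyte protein that associates with the cytoskeleton.

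The libraries held 29283936, 35264901 and 39198620 counts. A chaperone gene had between 1903 and 91994 counts per library and counting error was at most 2.29% of a value. In deposited TPM replicate 1 stands apart from the others: 59.6% of the 13664 genes that averaged 1 TPM or more (TPM, counts per gene length scaled to a common library total) were highest there. The median of log2(TPM + 1) in replicate 1 minus the mean of the others was 0.24 over these genes and -0.06 over the 1219 genes that averaged 100 TPM or more. Much of this went with the scaling: with TPM rescaled to the upper quartile 45.8% of the 13664 genes were highest in replicate 1 and the median difference was 0.06, and with TMM library sizes it was 42.8% and 0.01. The summed TPM of the 10 follicle stem cell markers was between 25475 and 32746, with Krt15 at 19607, 25612 and 24404 TPM. Markers outside the epithelium were low: the summed TPM was at most 45.3 for 7 fibroblast, 20.3 for 8 immune, 16.0 for 6 melanocyte and 0.373 for 6 endothelial markers, and no library had a count of Lum, Dpt, Cdh5, Cldn5 or Emcn. The sum was 176 to 228 TPM over 6 sebaceous markers and 3316 to 7185 TPM over 7 suprabasal markers, and which cells these transcripts came from was not tested.

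The upstream sequences of 4 of the genes are shown first, with matches to elements through which such genes are known to be controlled. Whether these matches act in these cells was not tested. RefSeq promoter windows (GRCm38.p6, 250 bases before to 50 after a start site) matched 6 of the 10 genes in 8 windows. Hspa8, Hsp90aa1, Hsp90ab1 and Hsf1 had no entry. The 250 upstream bases are printed 5′ to 3′ on the gene's strand, with heat shock elements in capitals for the first 3, and CCAAT boxes and the ER stress element in capitals for Hspa5, for which that element is known.
Hspa1b (chr17:34959239-34959488, minus strand): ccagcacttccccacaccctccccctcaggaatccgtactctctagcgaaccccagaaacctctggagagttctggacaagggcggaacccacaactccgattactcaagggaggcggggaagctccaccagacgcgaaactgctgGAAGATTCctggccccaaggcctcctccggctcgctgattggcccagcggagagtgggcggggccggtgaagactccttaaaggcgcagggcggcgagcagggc
Hspb1 (chr5:135887669-135887918, plus strand): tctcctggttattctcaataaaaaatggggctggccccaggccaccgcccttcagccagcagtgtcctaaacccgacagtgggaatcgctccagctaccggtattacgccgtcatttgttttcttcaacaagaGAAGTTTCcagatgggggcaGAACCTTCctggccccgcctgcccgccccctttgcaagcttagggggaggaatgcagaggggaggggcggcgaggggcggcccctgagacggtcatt
Hsph1 (chr5:149636337-149636586, minus strand): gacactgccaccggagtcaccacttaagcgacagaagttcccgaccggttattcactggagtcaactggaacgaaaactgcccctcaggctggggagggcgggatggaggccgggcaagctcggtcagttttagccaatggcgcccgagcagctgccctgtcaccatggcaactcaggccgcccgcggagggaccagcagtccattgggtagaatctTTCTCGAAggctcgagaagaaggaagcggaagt
Hspa5 (chr2:34771840-34772089, plus strand): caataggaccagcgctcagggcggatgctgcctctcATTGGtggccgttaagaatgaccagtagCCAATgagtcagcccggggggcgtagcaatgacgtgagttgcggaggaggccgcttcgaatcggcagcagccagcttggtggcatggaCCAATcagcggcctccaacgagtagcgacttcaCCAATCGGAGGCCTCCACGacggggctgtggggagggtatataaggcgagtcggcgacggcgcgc

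The heat shock element was searched as a 2-unit motif, GAANNTTC or TTCNNGAA, each of which reads the same on both strands. It was found in 4 of the 6 genes (Hspa1a, Hspa1b, Hspb1 and Hsph1), and in 15.1% of all 32851 promoter windows of this length. Hspa1b and Hspa1a both have GAAGATTC 104 bases before the start site, and Hspb1 has GAAGTTTC at -117 and GAACCTTC at -97. A match with 3 adjoining units, made of 2 overlapping 2-unit matches, was found in Hsph1 alone among these genes. It is the run TTCTGGAAAGTTC, 37 bases after the start site of the printed window, and 0.603% of all windows hold a 3-unit match. The Hspa5 window has the ER stress element, CCAAT followed after 9 bases by CCACG, at -65. This element, searched on both strands, is in 0.119% of all windows, and its CCAAT part also counts among the 4 CCAAT boxes (CCAAT or ATTGG) of Hspa5. CCAAT boxes were found in 5 of the 6 genes and in 37.4% of all windows. Of the 2 Dnajb1 windows, 1 held CCAAT boxes and the other, which lies within the annotated gene, held none. Neither had a match to either heat shock motif, which says only that these letters are not in these windows. The upstream stretches of Hspa1a and Hspa1b differ at 3 of 250 bases.

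**Figure D1:**
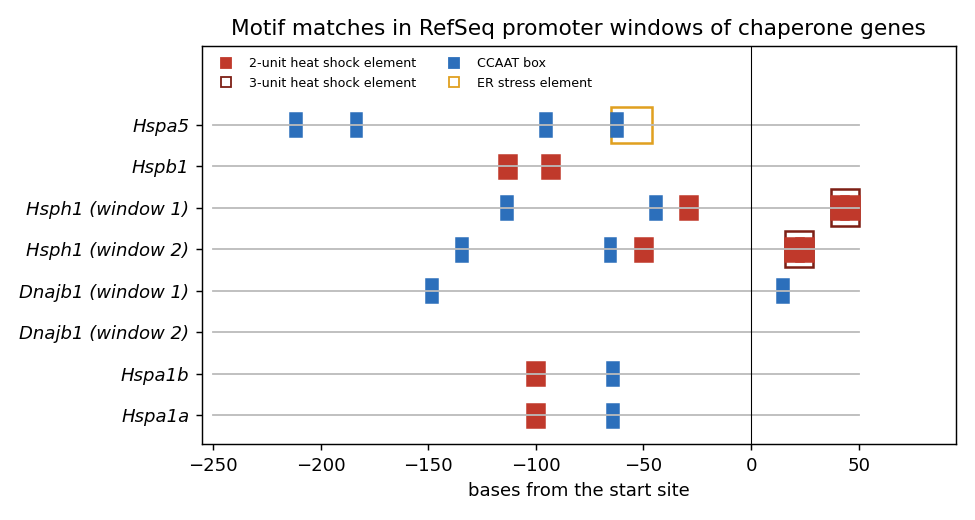
Motif matches in the RefSeq promoter windows of 6 chaperone genes; the x axis gives bases from the start site, filled boxes are 2-unit heat shock elements and CCAAT boxes, and open boxes are 3-unit heat shock and ER stress elements. Heat shock motifs appear in the Hspa1a, Hspa1b, Hspb1 and Hsph1 windows, and the ER stress element lies at -65 in Hspa5.

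Together the 10 genes took 8598, 6173 and 5678 TPM in replicates 1, 2 and 3, a mean of 6816 ± 1563 TPM (SD, n = 3), or 0.860%, 0.617% and 0.568% of each library's TPM. Without replicate 1 the mean was 5925 TPM. By mean TPM the order was Hspb1, Hsp90ab1, Hspa8, Hspa1b, Hsp90aa1, Hspa5, Dnajb1, Hspa1a, Hsf1 and Hsph1. Of the 9 pairs of neighbours in this order, 4 did not overlap over the libraries: Hsp90ab1 above Hspa8, Hspa8 above Hspa1b, Dnajb1 above Hspa1a, and Hsf1 above Hsph1. The other 5 pairs overlapped, and the order of Hspb1 and Hsp90ab1, of Hsp90aa1 and Hspa5, and of Hspa1a and Hsf1 was not the same in every library.

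**Figure D2:**
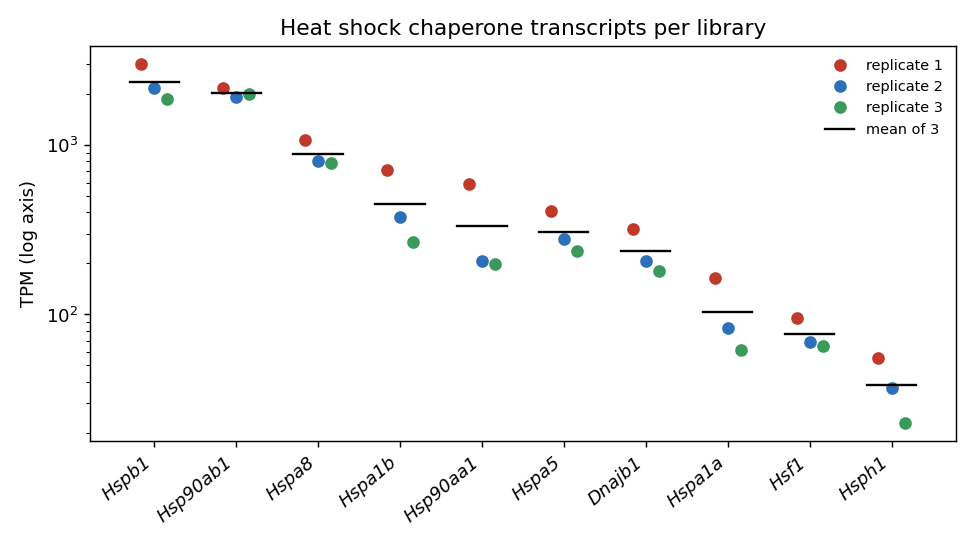
TPM of each chaperone gene on a log axis, with 1 point per library and a line at the mean of 3, ordered by mean. Replicate 1 is the highest point for all 10 genes in deposited TPM (for Hsp90ab1 not after rescaling to the upper quartile or with TMM), and levels run from a mean of 38.4 TPM for Hsph1 to 2352 TPM for Hspb1.

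The small chaperone Hspb1 (ENSMUSG00000004951, GRCm38 chromosome 5, 135887919 to 135889563, plus strand) binds unfolding proteins without ATP. It had 3014, 2172 and 1870 TPM in replicates 1 to 3, a mean of 2352 ± 593 TPM (SD, n = 3), which placed it 54th among all entries. Replicate 1 was high, and the mean of the other libraries was 2021 TPM. Of the 50-base words in its transcripts, 48.8% also occur in the pseudogene Hsp25-ps1, which had 8, 1 and 0 counts against 33495, 30659 and 29740 for Hspb1. Whether reads matching both were left out of the counts is not given in the sources used here.

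The HSP70 proteins hold exposed stretches of client proteins in cycles of ATP hydrolysis. Hspa8 (ENSMUSG00000015656, chromosome 9, 40800984 to 40810087, plus strand), the constitutive cytosolic form, had 1067, 811 and 784 TPM, a mean of 887 ± 156 TPM. Hspa5 (ENSMUSG00000026864, chromosome 2, 34771970 to 34777547, plus strand), the form of the endoplasmic reticulum also called BiP, had 407, 280 and 239 TPM, a mean of 309 ± 88.1 TPM. Replicate 1 was the high library for both, and the ranges of these genes did not overlap each other. Hspa8 was above Hspa5 by 1.39, 1.53 and 1.71 in log2(TPM + 1), a mean of 1.54 ± 0.16 (SD, n = 3; two-sided exact sign-flip permutation p = 0.25, the smallest that 3 libraries allow, so no such test here can pass 0.05).

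The inducible cytosolic HSP70 is encoded by Hspa1a (ENSMUSG00000091971, chromosome 17, 34969190 to 34972156, minus strand) and Hspa1b (ENSMUSG00000090877, chromosome 17, 34956436 to 34959238, minus strand). Hspa1b had 712, 374 and 268 TPM in replicates 1 to 3, a mean of 451 ± 232 TPM, and 321 TPM without replicate 1. Hspa1a had 164, 82.8 and 61.4 TPM, a mean of 103 ± 54.4 TPM, and 72.1 TPM without replicate 1. In each library Hspa1b lay above Hspa1a. Replicate 1 was high for both, 2.22-fold over the others for Hspa1b and 2.28-fold for Hspa1a as ratios of TPM.

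Reads of these copies are hard to tell apart. Their coding sequences differ at 8 of 1923 aligned bases, the encoded proteins are identical over 641 aligned residues, and 58.8% of the 50-base words of Hspa1a occur in Hspa1b and 62.3% of those of Hspa1b in Hspa1a. How reads matching both were counted is not given in the sources used here, so the level of each is uncertain. The sum does not depend on how shared reads were split between the copies, but it would be too low if they were left out. Hspa1b took 80.4% of the counts of the pair in replicate 1 (95% Wilson interval 79.9 to 80.8, counting error only), 81.0% in replicate 2 (80.4 to 81.6) and 80.5% in replicate 3 (79.8 to 81.1). This split was therefore nearly constant, 80.6% ± 0.346 (SD, n = 3), while the sum of the pair went from 876 TPM in replicate 1 to 457 and 330 TPM in replicates 2 and 3. The annotated antisense gene Gm20481 overlaps 564 exonic bases of Hspa1a and had 0 counts in all 3 libraries.

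Hspa8 was above the summed Hspa1a and Hspa1b by 0.28, 0.83 and 1.25 in log2(TPM + 1), a mean of 0.79 ± 0.48 (SD, n = 3; exact sign-flip p = 0.25). The constitutive form was the higher in 3 of 3 libraries, by least in replicate 1, and by 1.04 without replicate 1. Hspa8 shares words with 6 pseudogene copies in the table, which together had at most 0.136% of its counts in any library. These low counts do not show that Hspa8 itself kept the reads it shares with them.

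Hsph1 (ENSMUSG00000029657, chromosome 5, 149614287 to 149636376, minus strand) encodes HSP110, which exchanges nucleotide on HSP70. It was the lowest of the 10 genes, with 55.6, 36.7 and 22.9 TPM and a mean of 38.4 ± 16.4 TPM (SD, n = 3). Dnajb1 (ENSMUSG00000005483, chromosome 8, 83608193 to 83612653, plus strand) encodes HSP40, a J protein that hands clients to HSP70. It had 321, 206 and 181 TPM, a mean of 236 ± 74.5 TPM, with replicate 1 above the range of the others. None of the 50-base words of Hsph1, and 0.38% of those of Dnajb1, occur in transcripts of other genes.

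The cytosolic HSP90 proteins mature kinases and steroid receptors. Hsp90ab1 (ENSMUSG00000023944, chromosome 17, 45567775 to 45573271, minus strand), the constitutive form, had 2169, 1935 and 1989 TPM, a mean of 2031 ± 123 TPM (SD, n = 3). It varied least of the 10 genes, and its log2 range over the libraries, 0.16, lay at percentile 13.2 of the 8159 genes that averaged 10 TPM or more. Hsp90aa1 (ENSMUSG00000021270, chromosome 12, 110690605 to 110702728, minus strand), the stress-inducible form, had 593, 208 and 198 TPM, a mean of 333 ± 225 TPM, and 203 TPM without replicate 1. It varied most, with a log2 range of 1.57 at percentile 94.8.

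The ratio of Hsp90ab1 to Hsp90aa1 therefore moved with the library. It was 1.87 in replicate 1 and 3.21 and 3.32 in replicates 2 and 3 on the log2(TPM + 1) scale, a mean of 2.80 ± 0.81 (SD, n = 3; exact sign-flip p = 0.25). The constitutive gene was the higher in 3 of 3 libraries. The encoded proteins are identical at 628 of 724 aligned residues, yet 96.6% of the 50-base words of Hsp90ab1 occur in no other gene. Of the words of Hsp90aa1, 47.5% occur elsewhere, and 3 pseudogene copies had 73, 141 and 232 counts together, or 0.291%, 1.26% and 1.93% of those of Hsp90aa1. If shared reads were left out of the counts, Hsp90aa1 would be lowered more than Hsp90ab1 and the ratio would be too high.

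**Figure D3:**
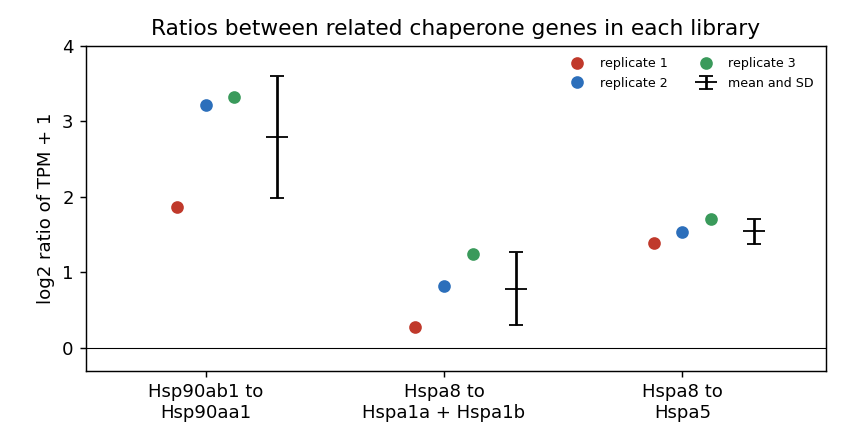
Log2 ratios of TPM + 1 between related chaperone genes in each library, with the mean and SD of 3 beside them. All 9 points lie above 0, and replicate 1 is the lowest point for each ratio, at 1.87, 0.28 and 1.39.

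Hsf1 (ENSMUSG00000022556, chromosome 15, 76477422 to 76501913, plus strand) had 95.6, 68.9 and 64.8 TPM, a mean of 76.4 ± 16.8 TPM (SD, n = 3). Replicate 1 was again the high library, and without it the mean was 66.8 TPM. Of the other heat shock factors, Hsf2 had 25.2, 9.06 and 13.2 TPM and Hsf4 had 15.2, 9.21 and 8.21 TPM, while Hsf3 had 5, 0 and 0 counts. Hsbp1, whose protein binds heat shock factor trimers, had 152, 143 and 141 TPM.

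All 10 chaperone genes were highest in replicate 1 in deposited TPM, as were 35.9% of the 1219 genes averaging 100 TPM or more and 59.6% of those averaging 1 or more. Rescaled to the upper quartile or with TMM library sizes this held for 9 of 10, against 45.8% and 42.8% of genes averaging 1 TPM or more, and Hsp90ab1 was then below the mean of the others by 0.06 and 0.11 on the log2 scale. In replicate 3, 9 of 10 were lowest, against 22.6% and 40.6% of genes at the same limits. The median of replicate 1 minus the others was 0.69 over the 10 genes, with a range from 0.14 for Hsp90ab1 to 1.54 for Hsp90aa1. With TMM library sizes it was 0.44 where the median over all genes was 0.01. Only Hsp90aa1 exceeded both other libraries by more than 1 on the log2 scale, 1 of 10 against 6.80% of the 8159 genes averaging 10 TPM or more. In order, the differences in deposited TPM were 1.54 for Hsp90aa1, 1.19 for Hspa1a, 1.17 for Hspa1b, 0.92 for Hsph1, 0.73 for Dnajb1, 0.66 for Hspa5, 0.58 for Hspb1, 0.51 for Hsf1, 0.42 for Hspa8 and 0.14 for Hsp90ab1. With TMM library sizes each was smaller and the order stayed, from 1.29 for Hsp90aa1 to 0.16 for Hspa8 and -0.11 for Hsp90ab1.

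**Figure D4:**
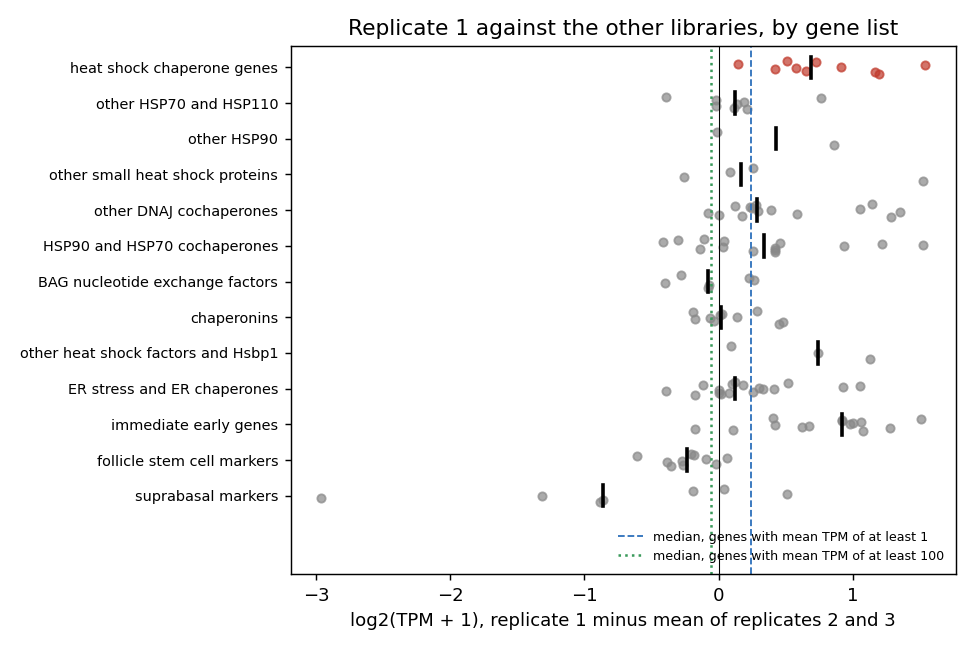
Log2(TPM + 1) in replicate 1 minus the mean of replicates 2 and 3 for each gene averaging 1 TPM or more (points) and the list median (bars), with dashed and dotted lines at the medians of all genes above each TPM limit. The chaperone genes lie between 0.14 and 1.54 (Hsp90ab1 falls below 0 after rescaling to the upper quartile or with TMM), the immediate early genes have a median of 0.92 and the follicle stem cell markers one of -0.23.

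Of 64 further chaperone and cochaperone genes, 58 averaged 1 TPM or more, and 32 of these were highest in replicate 1, with a median difference of 0.18, where 59.6% of all genes at that limit were highest there with a median of 0.24. The HSP70 and HSP110 relatives Hspa9 of mitochondria and Hspa4 had 173, 159 and 155 TPM and 70.0, 65.5 and 63.8 TPM. Hyou1, of the endoplasmic reticulum, was lowest in replicate 1, with 24.6, 35.0 and 30.3 TPM, and Hspa1l was near the detection limit with 14, 14 and 4 counts. Among HSP90 genes, Hsp90b1 of the endoplasmic reticulum had 198, 104 and 113 TPM, while mitochondrial Trap1 had 90.0, 86.4 and 95.5 TPM.

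The small chaperone Hspb8 was the highest of these further genes, with 750, 655 and 765 TPM, and Cryab had 204, 183 and 159 TPM. No read was counted for Hspb3, a floor of 3 counts being 0.356, 0.281 and 0.249 TPM in replicates 1 to 3. Of 10 chaperonin genes, 5 were highest in replicate 1 in deposited TPM, with a median difference of 0.02, against 59.6% and 0.24 over all genes averaging 1 TPM or more. Cct2 had 355, 373 and 432 TPM and Cct5 had 261, 251 and 267 TPM, and the lowest, Cct3, had 69.3, 72.6 and 72.0 TPM. The mitochondrial cochaperonin Hspe1 varied most of its list, with 163, 108 and 126 TPM.

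Among J proteins, 11 of 14 were highest in replicate 1 in deposited TPM, against 59.6% of all genes averaging 1 TPM or more. Dnaja2 was the highest of them, with 124, 107 and 111 TPM, followed by Dnajb2 with 72.8, 83.7 and 70.5 TPM. Dnajb5 was the lowest, with 4.50, 3.60 and 3.35 TPM, and Dnaja1 had the largest range, with 73.9, 33.1 and 26.8 TPM. Of the cochaperones of HSP90 and HSP70, 7 of 14 were highest in replicate 1, against the same 59.6%. Fkbp4 had 271, 288 and 242 TPM, Ahsa1, which stimulates the HSP90 ATPase, had 232, 185 and 162 TPM, and Chordc1 had 23.7, 9.47 and 9.73 TPM. Of the BAG genes, whose proteins release nucleotide from HSP70, Bag1 had 413, 435 and 439 TPM, and the stress-inducible Bag3 was lowest in replicate 1 with 126, 192 and 145 TPM. Bag2 was the lowest of them, with 7.73, 7.42 and 9.01 TPM.

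Of the genes of the unfolded protein response in the endoplasmic reticulum, 10 of 17 were highest in replicate 1 in deposited TPM, with a median difference of 0.12. Of all genes averaging 1 TPM or more, 59.6% were highest there, with a median of 0.24, so nothing particular to this list is read from the count. Calr had 557, 650 and 606 TPM and P4hb had 378, 482 and 508 TPM, both lowest in replicate 1. The transcription factor Atf4 varied most of this list, with 583, 270.3 and 291 TPM, and the stress sensor Ern1 was the lowest, with 6.00, 4.58 and 6.66 TPM.

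Immediate early genes respond within minutes to stress and growth signals. Of 14, 12 were highest in replicate 1 in deposited TPM, against 59.6% of genes averaging 1 TPM or more and 35.9% of those averaging 100 or more, and their summed TPM was 27640, 17850 and 12809. Fos had 10120, 5406 and 4269 TPM, Jun 3678, 1944 and 1179 TPM and Btg2, which varied most, 416, 175 and 122 TPM. The exceptions, both highest in replicate 2, were Fosb, with 2107, 2538 and 1513 TPM, and Fosl1, the lowest of the list, with 36.1, 43.0 and 38.6 TPM. Follicle stem cell markers were highest in replicate 1 in 0 of 10 cases, and 7 suprabasal markers summed to 3316, 4477 and 7185 TPM. The part of these differences in the chaperone result was not tested. Among 83 further stress and chaperone genes averaging 10 TPM or more, the 3 most variable chaperone genes were matched by their pattern over the 3 libraries, by the largest difference of centred log2(TPM + 1). Nearest to Hspa1a were Fos (0.08) and Dnaja1 (0.09), nearest to Hspa1b were Fos (0.10) and Ier2 (0.11), and nearest to Hsp90aa1 were Dnajb4 (0.13) and Ppid (0.15). The nearest of 83 genes over 3 libraries lie close by selection, and no other genes were searched. No link between these genes is therefore read from the matches.

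The authors' deposited table also holds a log2 fold change and an adjusted p-value per gene. From column names the comparison was read as one with bulge libraries, which belong to no sample of this series and were not analysed here. All 2555 genes with a fold change and 0 counts in the 3 libraries have a negative value, so positive means higher in the alpha6-positive, Sca1-negative cells. Of the 10 chaperone genes, 5 were higher and 1 lower at an adjusted p-value under 0.05 in the authors' deposited table, against 23.6% higher and 32.0% lower among all 20274 genes with a p-value. Genes of like level were mostly higher in the authors' deposited table: of the 1219 genes averaging 100 TPM or more, 75.0% were higher and 7.05% lower, and of the 8 chaperone genes of that level 5 were higher and 1 lower. Since TPM here comes from the same libraries as the fold change, the 2 backgrounds differ by construction, and nothing particular to the chaperone genes is read from the count.

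In the authors' deposited table Hspb1 had the largest log2 fold change, 2.34 (adjusted p = 3.84e-30), followed by Hspa1b with 1.78 (adjusted p = 3.42e-10) and Hsp90ab1 with 0.97 (adjusted p = 4.07e-08). Dnajb1 had 0.63 (adjusted p = 0.0106) and Hspa8 0.42 (adjusted p = 0.0264) in the authors' deposited table. Hsp90aa1 was the gene that was lower, with -1.48 (adjusted p = 2.40e-05) in the authors' deposited table, so the constitutive and the inducible HSP90 gene had opposite directions. Hspa5 had 0.41 (adjusted p = 0.0503), Hsph1 -0.06 (adjusted p = 0.859) and Hsf1 -0.24 (adjusted p = 0.291) in the authors' deposited table. Hspa1a had -0.19 (adjusted p = 0.607) in the authors' deposited table, unlike Hspa1b, although the pair encode the same protein and kept a near constant split of counts over the 3 libraries. Both values rest on how shared reads were assigned. The fold changes include replicate 1, and their size without it was not tested.

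Of the further lists, 11 of 14 cochaperones of HSP90 and HSP70 and 8 of 10 chaperonin genes were higher in the authors' deposited table, with median log2 fold changes of 1.52 and 1.21, where the median over all genes was -0.36. Of all genes 23.6%, and of those averaging 100 TPM or more 75.0%, were higher in the authors' deposited table, and the median levels of these lists were 72.3 and 138 TPM, so nothing particular to them is read from the counts. The J proteins had 5 higher and 6 lower of 14 in the authors' deposited table. The other HSP70 and HSP110 genes had 2 higher and 4 lower of 10 in the authors' deposited table. Endoplasmic reticulum genes had 12 higher and 3 lower of 17, and Hsp90b1, the HSP90 form of that compartment, was lower with -1.20 (adjusted p = 4.04e-08) in the authors' deposited table.

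**Figure D5:**
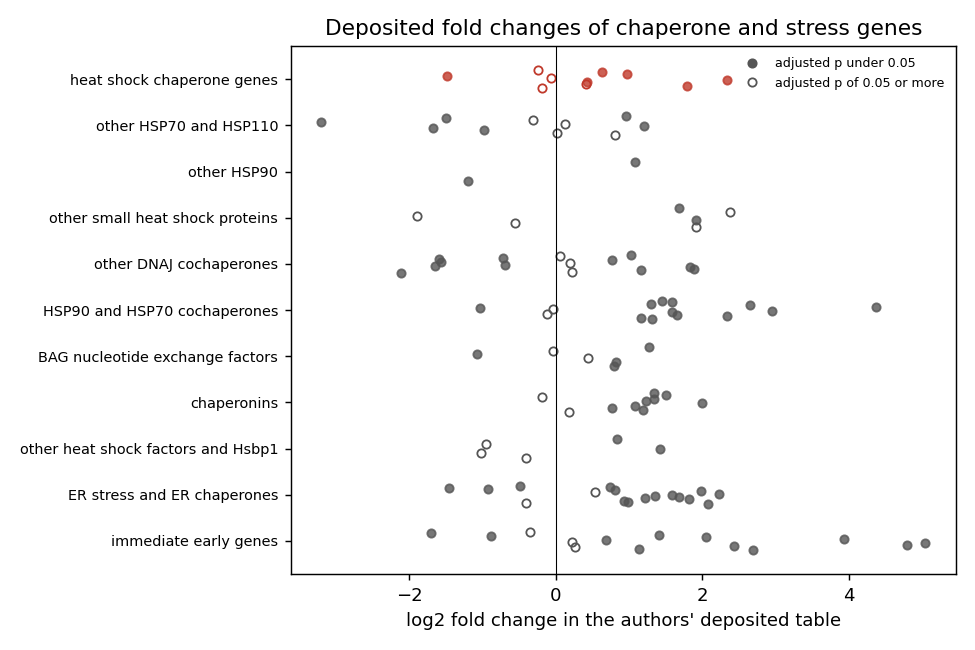
Log2 fold changes from the authors' deposited table for the chaperone and stress gene lists, with 1 point per gene with an adjusted p-value, filled where that is under 0.05. Of the 10 heat shock chaperone genes, 5 filled points lie above 0 and 1, Hsp90aa1 at -1.48, lies below.

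The table's H3K27me3 value, a number per gene for a histone mark of repressed genes whose unit is not given, was 0 for all 10 chaperone genes, where 8.06% of the 44625 entries have a value above 0.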

How the data were processed

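Polyadenylated RNA of 3 libraries of 1 group was measured. Whole-number read counts per gene and TPM values were deposited by the authors, per the file headers. Per the submitters' processing notes, FastQC, SAMtools, TopHat2, DESeq and DESeq2 were used with mm10 (GRCm38). The counting tool and strand setting are not given in the sources used here. TPM recomputed from counts and deposited gene lengths differed by at most 4.72e-06. The log2 fold change, its adjusted p-value and a score per gene (not used) were deposited by the authors, per the file headers. Another 6 columns of per-sample values match no sample of this series and were not used.

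Levels are compared in TPM, and libraries on log2(TPM + 1), which understates changes of low genes. With 1 group no differential test was run. Ratios between genes were tested over libraries by exact sign-flip permutation. Named further genes are the 2 highest, the lowest and the most variable (averaging 10 TPM or more) of each list, with genes at 0 counts. Krt15, Hsf4, Fosb and Stub1 were named after their values were seen. Coordinates come from GENCODE M21 by identifier, and 50-base words from its transcripts (same strand). TMM factors came from edgeR 4.0.16 in R 4.3.3. Other steps used Python 3.11.15 and Biopython 1.88. The replicate comparison was run on simulated counts with known changes and counting error only. That run checks the calculation and says nothing about the spread between real libraries. The chaperone genes and lists were chosen with earlier results of these data known.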

Additional observations from a re-analysis of the deposited data

How the results depend on the processing

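The summed level of the chaperone genes was 5925 to 7386 TPM when each replicate in turn was left out. The ratio of Hsp90ab1 to Hsp90aa1 was 2.54 to 3.27 without 1 replicate, that of Hspa8 to the Hspa1 pair 0.56 to 1.04, and that of Hspa8 to Hspa5 1.46 to 1.62, all positive. Without division by gene length the ratio of Hspa8 to the Hspa1 pair was 1.39 in place of 0.79, since the deposited length of Hspa8 is greater. The median difference of replicate 1 from the others over the chaperone genes, 0.69, was 0.49 after rescaling to the upper quartile and 0.44 with TMM library sizes, which lowered the median over all genes from 0.24 to 0.06 and 0.01. It was 0.80 without replicate 2 and 0.56 without replicate 3, chosen after seeing the data. Leaving out replicate 1 lowered the mean of Hsp90aa1 from 333 to 203 TPM. Under the rescalings of TPM (upper quartile, or without mitochondrial genes in the total), the mean that moved by more than the SD over libraries was that of Hsp90ab1, at 2293 TPM without mitochondrial genes. At an adjusted p-value under 0.05 with an absolute log2 fold change of at least 1, 3 chaperone genes passed in the authors' deposited table in place of 6, and at 0.01 it was 4. No paired analysis was possible because there is 1 group.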

Other observations

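Fkbp5, which encodes an HSP90 cochaperone known as a glucocorticoid receptor target, varied most among the 14 cochaperones of HSP90 and HSP70. It had 42.7, 8.59 and 53.7 TPM in replicates 1, 2 and 3, a log2 range of 2.51, so replicate 2 was the low library and replicate 3 the high one, whereas the 10 heat shock chaperone genes were highest in replicate 1 in deposited TPM. In the authors' deposited table Fkbp5 had a log2 fold change of 2.95. Stub1, whose protein is a ubiquitin ligase that acts on HSP70 clients, had the largest log2 fold change of that list in the authors' deposited table, 4.37, a gene singled out after its values were seen.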
